A study of Homo sapiens with 6 samples.

Results

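The genes described here are 50 immediate early and NF-kB response genes, listed by name from known pathways, with earlier results of these data known. They comprise 7 subunits of the transcription factor AP-1, 6 EGR and NR4A factors, 7 other early response genes, 3 ZFP36 family genes, 6 dual-specificity phosphatases (DUSP), 4 Sprouty and SPRED genes, 5 NF-kB subunits, 5 NF-kB inhibitors and feedback genes and 7 NF-kB targets. A probe was found by accession for 49 of the 50, NFKB2 being the exception, and each gene was read from its brightest probe. Of the 49, 39 passed the filter on dim probes (a mark above background from the scanner software on both replicates of 1 or more groups) and were tested, among 14480 genes tested and 19698 named on the array.

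Expression was measured in RPMI-8402, an established human T-cell acute lymphoblastic leukemia line, so the cells were neither primary thymocytes nor a mixture of donors. All cells were transduced and profiled at 48 h. The control group (control) had a control hairpin, the shGATA3 group a hairpin against GATA3 and the shTCF1 group a hairpin against TCF1, the protein that TCF7 encodes. The paper describes its control and GATA3 hairpin vectors as lentiviruses with an EGFP marker, and its methods list no TCF7 hairpin vector. Its culture methods describe sorting of transduced cells by marker after 48 h, without naming this cell line there. The labels name no agent added to induce early genes and 1 hairpin virus per group, so effects of a second hairpin were not measured. Each group had 2 arrays, labelled as replicate 1 and 2. The study describes the replicates of this cell line as independent experiments.

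Immediate early genes are transcribed within minutes of a signal, without new protein synthesis, largely downstream of the ERK, JNK and p38 kinases. Their products include the AP-1 and EGR transcription factors and the brakes on the same signal: DUSP phosphatases that inactivate the kinases, Sprouty and SPRED proteins that restrain Ras, and ZFP36 proteins that destabilize short-lived mRNAs. NF-kB dimers are held in the cytoplasm by IkB proteins, and once released they induce survival genes, cytokines and their own inhibitors. In T cells both programs follow T-cell receptor and cytokine signals, and in T-cell leukemia they can be active without an added stimulus.

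The arrays were read on a normalized log2 scale and compared with limma, and a gene was called at an adjusted p below 0.05 over all 31134 tested probes of a comparison. The share of probes called was 6.84% between shGATA3 and control, 16.9% between shTCF1 and control and 6.18% between shGATA3 and shTCF1. Among called probes 896 were higher and 1234 lower on shGATA3 arrays than on control arrays, but with scaling to the 75th percentile the split turned to 1011 and 833, and for shTCF1 against control from 2246 and 3028 to 2768 and 2161. TCF7 fell by 1.31 ± 0.10 (SE) in shTCF1 against control (adjusted p = 0.00394), whereas GATA3 was not lower on the arrays labelled shGATA3, with 9.46 and 9.55 against 9.54 and 9.56 on the control arrays (difference -0.05 ± 0.10, adjusted p = 0.795). A direction drawn from the arrays labelled shGATA3 therefore refers to that label. GATA3 was read from the 1 probe found for it. The paper reports a knockdown by its GATA3 hairpin in thymocytes, which are not the cells profiled here. All 6 arrays lay on 1 slide and were scanned together, with both control arrays in column 2 of the slide and the 4 hairpin arrays in column 1, and before scaling the 75th percentile of intensity was 271 and 290 on control arrays and 166 to 179 on the others. Slide column and control against hairpin cannot be told apart. The shGATA3 and shTCF1 arrays shared 1 column, with shTCF1 in rows 1 and 2 and shGATA3 in rows 3 and 4. Slide row and hairpin therefore cannot be told apart either. Of 13 markers of T-cell acute lymphoblastic leukemia, 11 were well above background on all 6 arrays and none was below it on all. Of the markers of other cells, 2 of 5 for B cells (CD22 on no array), 3 of 4 for myeloid cells, 2 of 5 for NK cells (KLRD1 and KLRF1 on no array) and 3 of 5 for stroma and epithelium (COL1A2 and EPCAM on no array) were above background throughout. The summed normalized intensity of the leukemia markers was 98940 to 101300 in control, 146200 to 164400 in shGATA3 and 99550 to 114200 in shTCF1, so that it was highest on both shGATA3 arrays. The summed normalized intensity of the B-cell list was 271 to 272 in control, 257 to 266 in shGATA3 and 318 to 326 in shTCF1, that of the NK list 2016 to 2094, 1768 to 2020 and 1960 to 2018, that of the myeloid list 266 to 297, 285 to 291 and 280 to 300, and that of the stroma list 46820 to 55760, 38090 to 45050 and 52130 to 53890. Their part in the results below was not tested.

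Among the 39 tested genes, 6 were called between shGATA3 and control, 1 higher and 5 lower, which is 6 of 39 against 6.93% of all tested genes (2.77% higher, 4.16% lower). Between shTCF1 and control 9 were called, 4 higher and 5 lower, against 16.3% of all genes (6.25% higher, 10% lower). Between shGATA3 and shTCF1 8 were called, 4 in each direction, against 6.6% of all genes (3.78% higher, 2.82% lower). The lower calls in shGATA3, against control and against shTCF1, include NFKBIZ, which was not well above background on the shGATA3 arrays and passed the filter only through the other groups. The groups did not overlap for 21 of the 39 between shGATA3 and control, for 33 between shTCF1 and control and for 30 between the hairpin groups, where all genes gave 63%, 69.2% and 53.4%. The median difference of the 39 was -0.08, -0.18 and -0.05 on the log2 scale, beside -0.03, -0.05 and 0.00 for all tested genes. No direction was common to the whole set. The first and second comparison share the control arrays, so values are given side by side and their likeness is not read as a result. In RNA from bulk cells, fewer cells making a transcript and less transcript per cell cannot be told apart.

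**Figure D1:**
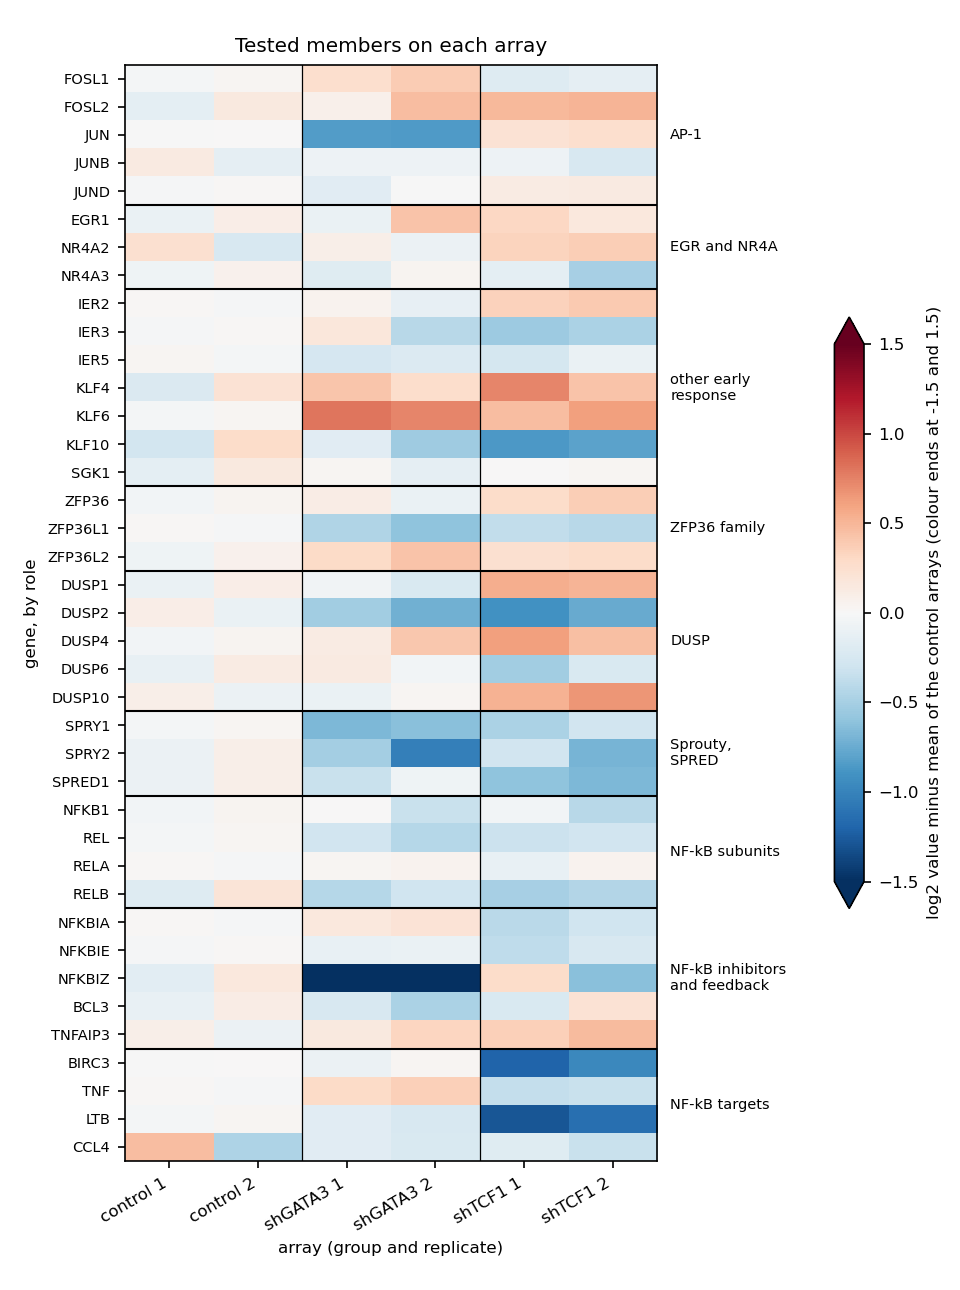
Normalized log2 value of each of the 39 tested genes (rows, by role) on each of the 6 arrays (columns), minus the mean of the 2 control arrays of that gene, with red above and blue below that mean. JUN stands out as low on both shGATA3 arrays, and LTB and BIRC3 as low on both shTCF1 arrays. NFKBIZ is also low on both shGATA3 arrays, where it was not well above background, so the filter set that sign.

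Of the AP-1 subunits, JUN was the only one called. JUN forms AP-1 with FOS proteins or with itself and is a substrate of JNK. Its level was 7.91 and 7.93 on the control arrays, 7.09 and 7.08 on the shGATA3 arrays and 8.14 and 8.18 on the shTCF1 arrays. The 3 groups did not overlap, with shGATA3 lowest and shTCF1 highest, and the arrays of each group lay close together. JUN fell by 0.84 ± 0.09 (SE) in shGATA3 against control (adjusted p = 0.0101, limma), a level 1.79-fold lower. Against shTCF1 it fell by 1.07 ± 0.09 in shGATA3 (adjusted p = 0.00353), while the difference between shTCF1 and control was 0.24 ± 0.09 (adjusted p = 0.134). The other AP-1 subunits measured differed from control by -0.09 to 0.32 in shGATA3 and by -0.16 to 0.50 in shTCF1, and none was called in any comparison. FOSL1, which partners JUN proteins, came closest between the hairpin groups, with 5.58 and 5.71 in shGATA3 against 5.14 and 5.20 in shTCF1 (difference 0.48 ± 0.10, adjusted p = 0.055). FOSL2 was 4.98 and 5.26 in control and 5.61 and 5.63 in shTCF1 (difference 0.50 ± 0.17, adjusted p = 0.0912). JUNB and JUND, the other JUN proteins, differed by -0.22 to 0.13 over the 3 comparisons. FOS and FOSB, the classic immediate early subunits, were not well above background on any array and were not tested.

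Of the 6 EGR and NR4A factors, 3 were well above background on all 6 arrays, and none was called. EGR1, a zinc finger factor induced through serum response factor, was 5.47 and 5.68 in control, 5.47 and 5.997 in shGATA3 and 5.88 and 5.73 in shTCF1, so that shGATA3 replicate 2 alone was higher than either array of the other groups. NR4A2 and NR4A3, orphan nuclear receptors induced by T-cell receptor signals, differed from control by -0.32 to 0.35 across both hairpin groups. EGR2, EGR3 and NR4A1 were not well above background on any array.

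Of the other early response genes, KLF6 was higher in both hairpin groups than in control and KLF10 was lower in shTCF1. KLF6 and KLF10 are Kruppel-like transcription factors, KLF10 being known as a TGF-beta inducible gene. KLF6 was 9.18 and 9.24 in control, 10.02 and 9.95 in shGATA3 and 9.68 and 9.83 in shTCF1. The control arrays were lowest and shGATA3 highest, with no overlap among the 3 groups. It rose by 0.77 ± 0.11 in shGATA3 against control (adjusted p = 0.0171, limma) and by 0.54 ± 0.11 in shTCF1 (adjusted p = 0.025), and the direct difference of 0.23 ± 0.11 was not called (adjusted p = 0.26). A second KLF6 probe, well above background on only 3 arrays, was not tested. Its means were 4.57 in control, 4.45 in shGATA3 and 4.68 in shTCF1. KLF10 was 7.25 and 7.80 in control, 7.35 and 6.99 in shGATA3 and 6.66 and 6.72 in shTCF1. The control arrays of KLF10 lay farther apart than those of KLF6, and both shTCF1 arrays were below every other array. It fell by 0.83 ± 0.21 in shTCF1 against control (adjusted p = 0.0491). IER2, IER3, IER5, KLF4 and the kinase SGK1 were called in no comparison. IER2 was 14.17 and 14.13 in control, 14.21 and 14.02 in shGATA3 and 14.50 and 14.55 in shTCF1 (shTCF1 minus control 0.37 ± 0.11, adjusted p = 0.066). IER3, a stress and survival gene, was 9.47 and 9.50 in control and 8.95 and 9.01 in shTCF1 (difference -0.51 ± 0.20, adjusted p = 0.127), with 9.66 and 9.07 on the 2 shGATA3 arrays.

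The ZFP36 proteins bind AU-rich elements and promote decay of early response and cytokine mRNAs. ZFP36L1 was 10.43 and 10.39 in control, 9.96 and 9.80 in shGATA3 and 10.03 and 9.99 in shTCF1. Both hairpin groups lay below control without overlap. It fell by 0.53 ± 0.10 in shGATA3 (adjusted p = 0.0425, limma), and the difference in shTCF1 was -0.39 ± 0.10 (adjusted p = 0.0528). Its second probe, however, gave -0.24 ± 0.11 (adjusted p = 0.235) and 0.07 ± 0.11 (adjusted p = 0.703), so the call and, for shTCF1, the sign depended on the probe. ZFP36L2 was 11.20 and 11.33 in control against 11.55 and 11.69 in shGATA3 and 11.51 and 11.54 in shTCF1 (differences 0.35 and 0.26, both ± 0.11, adjusted p = 0.109 and 0.15). ZFP36 itself differed from control by 0.01 and 0.32, and neither value was called.

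The DUSP phosphatases moved in both directions. DUSP1 and DUSP10 act mainly on JNK and p38, DUSP6 on ERK, and DUSP2 and DUSP4 are nuclear enzymes of the same family. DUSP2 was 8.40 and 8.21 in control, 7.79 and 7.58 in shGATA3 and 7.40 and 7.55 in shTCF1. Every hairpin array was below both control arrays. It fell by 0.62 ± 0.13 in shGATA3 (adjusted p = 0.0488, limma) and by 0.83 ± 0.13 in shTCF1 (adjusted p = 0.0149), with 0.21 ± 0.13 between the hairpin groups (adjusted p = 0.385).

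DUSP1, DUSP4 and DUSP10 were higher in shTCF1. DUSP1 was 6.92 and 7.12 in control, 6.96 and 6.79 in shGATA3 and 7.57 and 7.53 in shTCF1. DUSP10 was 5.59 and 5.41 in control, 5.40 and 5.53 in shGATA3 and 6.02 and 6.16 in shTCF1. In both genes the shTCF1 arrays stood above the other 4, which overlapped. DUSP1 rose by 0.53 ± 0.12 in shTCF1 against control (adjusted p = 0.0364), and was lower by 0.67 ± 0.12 in shGATA3 than in shTCF1 (-0.67, adjusted p = 0.0326). DUSP10 rose by 0.59 ± 0.12 in shTCF1 (adjusted p = 0.0268), with -0.62 ± 0.12 between shGATA3 and shTCF1 (adjusted p = 0.0394). DUSP4 was 7.17 and 7.25 in control, 7.33 and 7.61 in shGATA3 and 7.83 and 7.66 in shTCF1, in steps that did not overlap. It rose by 0.54 ± 0.13 in shTCF1 against control (adjusted p = 0.046), and neither its difference between shGATA3 and control (0.26 ± 0.13, adjusted p = 0.274) nor that between the hairpin groups (-0.28 ± 0.13, adjusted p = 0.284) was called. DUSP6 was 6.02 and 6.25 in control and 5.61 and 5.91 in shTCF1 (difference -0.38 ± 0.15, adjusted p = 0.14). DUSP5 was well above background on control replicate 1 alone, at 7.81, with 2.98 to 3.59 on the other 5 arrays, and was not tested.

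The 3 Sprouty and SPRED genes tested had lower means in both hairpin groups than in control, in comparisons that share the control arrays. SPRY1 was called in shGATA3 and SPRED1 in shTCF1, beside 6.93% and 16.3% of all genes. SPRY1 was 8.61 and 8.66 in control, 7.96 and 8.003 in shGATA3 and 8.16 and 8.35 in shTCF1. All hairpin arrays were below both control arrays. It fell by 0.65 ± 0.11 in shGATA3 (adjusted p = 0.0286, limma), and its difference in shTCF1 was -0.38 ± 0.11 (adjusted p = 0.0656). SPRY2 was 7.23 and 7.41 in control, 6.81 and 6.29 in shGATA3 and 7.03 and 6.62 in shTCF1, with differences of -0.77 ± 0.22 (adjusted p = 0.0942) and -0.49 ± 0.22 (adjusted p = 0.169). Its arrays within a hairpin group differed more than those of SPRY1. SPRED1 was 5.41 and 5.59 in control, 5.17 and 5.43 in shGATA3 and 4.90 and 4.82 in shTCF1, and fell by 0.64 ± 0.13 in shTCF1 (adjusted p = 0.0295). SPRED2 was not well above background on any array.

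**Figure D2:**
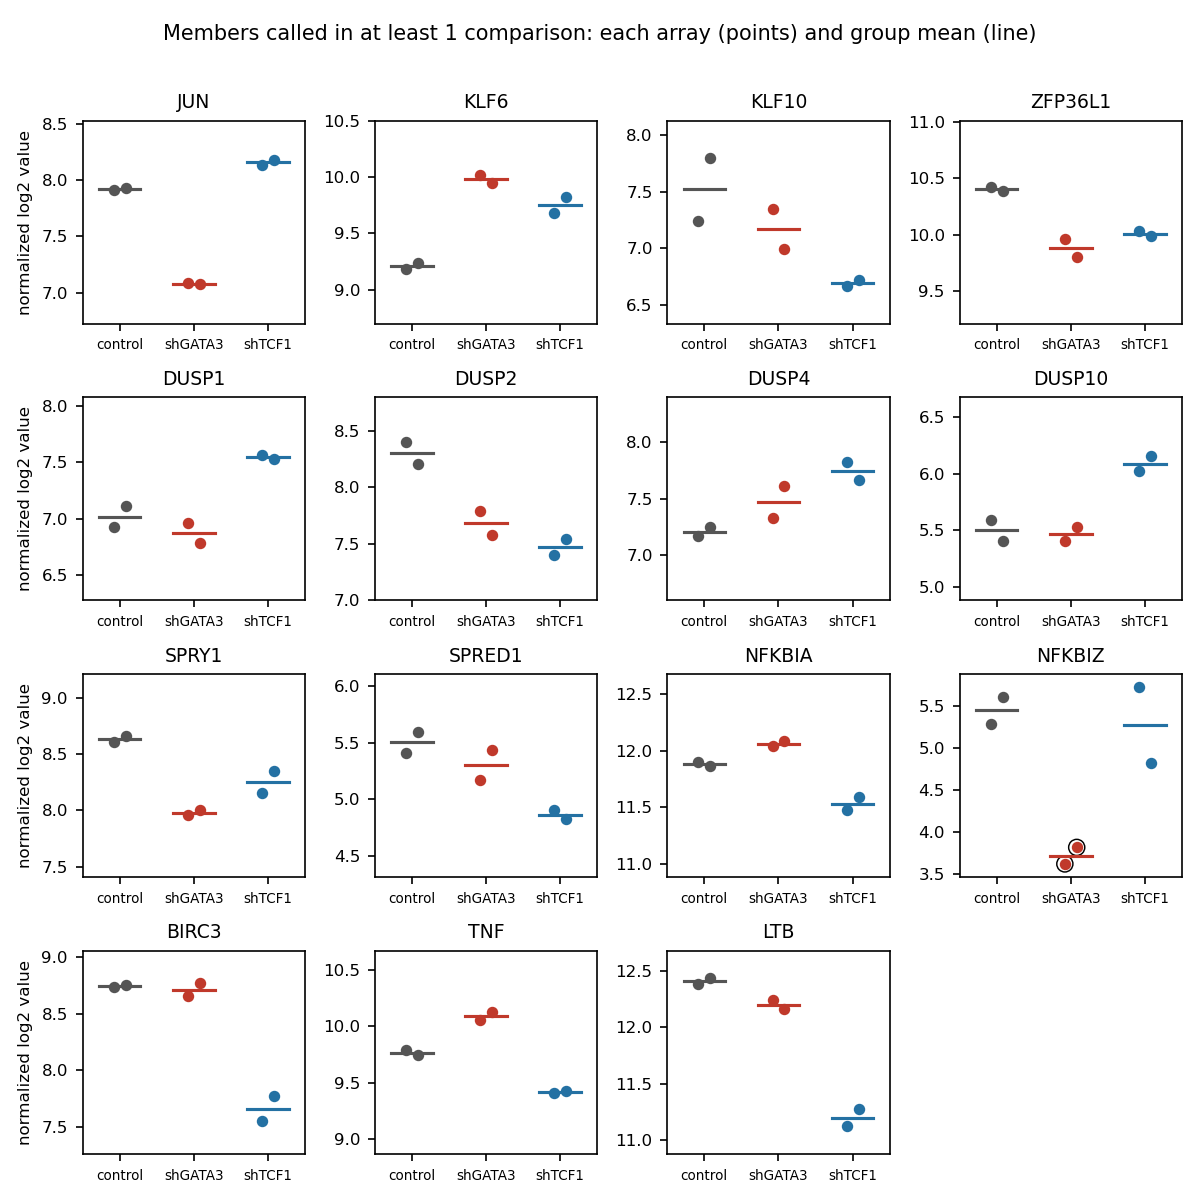
Normalized log2 value on each array (points) and group mean (lines) of the 15 genes called in at least 1 comparison, 1 panel per gene with its own axis. Black rings mark the 2 shGATA3 arrays on which NFKBIZ was not well above background, and the shTCF1 points of LTB and BIRC3 lie about 1 unit below the other groups.

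None of the NF-kB subunits was called in any comparison. REL, the subunit most closely tied to lymphocyte activation, was 8.43 and 8.49 in control, 8.18 and 8.03 in shGATA3 and 8.14 and 8.17 in shTCF1 (differences -0.36 and -0.31, both ± 0.10, adjusted p = 0.0984 and 0.0955). RELB, of the noncanonical pathway, was 7.66 and 8.05 in control, 7.43 and 7.56 in shGATA3 and 7.36 and 7.41 in shTCF1 (differences -0.36 and -0.47, both ± 0.15, adjusted p = 0.192 and 0.0823). Both hairpin groups lay below control for REL and RELB, by amounts that the test did not call. RELA differed from control by 0.04 and -0.03, with 95% intervals of -0.21 to 0.29 and -0.28 to 0.23. A second RELA probe gave -0.26 ± 0.12 in both (adjusted p = 0.244 and 0.187), with both hairpin groups below control and not overlapping it, so the sign in shGATA3 depended on the probe. NFKB1, well above background on 5 of the 6 arrays, differed by -0.16 and -0.23, both ± 0.17. Between the hairpin groups the 4 subunits differed by -0.05 to 0.11.

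Among the NF-kB targets, LTB and BIRC3 fell in shTCF1. LTB encodes lymphotoxin beta, a membrane-bound cytokine of the TNF family, and was 12.38 and 12.43 in control, 12.24 and 12.16 in shGATA3 and 11.12 and 11.27 in shTCF1. Both shTCF1 arrays lay about 1 unit below all others, and shGATA3 was just below control without overlap. LTB fell by 1.21 ± 0.11 in shTCF1 against control (adjusted p = 0.00501, limma), a level 2.31-fold lower, and was higher by 1.00 ± 0.11 in shGATA3 than in shTCF1 (adjusted p = 0.00635). Its difference between shGATA3 and control was -0.21 ± 0.11 (adjusted p = 0.272).

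BIRC3 encodes a ubiquitin ligase that restrains cell death and noncanonical NF-kB signalling. It was 8.74 and 8.75 in control, 8.65 and 8.77 in shGATA3 and 7.55 and 7.78 in shTCF1. Control and shGATA3 overlapped, and both shTCF1 arrays were far below them. BIRC3 fell by 1.08 ± 0.12 in shTCF1 against control (adjusted p = 0.00723) and was higher by 1.05 ± 0.12 in shGATA3 than in shTCF1 (adjusted p = 0.00801). Its difference between shGATA3 and control was -0.03 ± 0.12, with a 95% interval of -0.32 to 0.26.

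TNF, the inflammatory cytokine, was 9.79 and 9.75 in control, 10.05 and 10.13 in shGATA3 and 9.41 and 9.43 in shTCF1. The groups did not overlap, shGATA3 being highest and shTCF1 lowest. Only the direct difference was called, at 0.67 ± 0.10 (adjusted p = 0.0171), while those from control were 0.32 ± 0.10 (adjusted p = 0.104) and -0.35 ± 0.10 (adjusted p = 0.0589). The chemokine gene CCL4 was 6.45 on control replicate 1 and 5.53 to 5.82 on the other 5 arrays, and no difference was called. LTA, the neighbour of TNF and LTB on chromosome 6, was well above background on control replicate 1 alone, at 6.16, with 3.68 on control replicate 2 and 3.98 to 4.34 on the hairpin arrays. DUSP5, LTA and CCL4 thus shared their highest value on control replicate 1. TRAF1, an adaptor of TNF receptors, was well above background only on shGATA3 replicate 1, and CCL3 on no array, and these were not tested. CCL3 and CCL4 have near-identical gene copies whose transcripts the probes may not separate.

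The inhibitors and feedback genes did not move as a block. NFKBIA, the IkB alpha gene and the standard early target of NF-kB, was 11.90 and 11.87 in control, 12.04 and 12.08 in shGATA3 and 11.48 and 11.59 in shTCF1. As for TNF, the groups did not overlap, with shGATA3 highest and shTCF1 lowest. The direct difference was 0.53 ± 0.10 (adjusted p = 0.0379), and those from control were 0.18 ± 0.10 (adjusted p = 0.307) and -0.35 ± 0.10 (adjusted p = 0.062).

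NFKBIZ encodes a nuclear IkB protein that modifies the choice of NF-kB targets. It was 5.29 and 5.61 in control and 5.72 and 4.82 in shTCF1, and at 3.62 and 3.82 it was not well above background on either shGATA3 array. It was called lower in shGATA3 against control (difference -1.73, adjusted p = 0.03) and against shTCF1 (-1.55, adjusted p = 0.04), and counted against the dimmest signal well above background these are at least 2.53-fold and at least 2.24-fold lower. Since it passed the filter only through the groups in which it was brighter, the sign of this difference was set by the filter. NFKBIE, another IkB gene, was 9.87 and 9.91 in control, 9.78 and 9.79 in shGATA3 and 9.51 and 9.65 in shTCF1 (shTCF1 minus control -0.31 ± 0.10, adjusted p = 0.09). TNFAIP3, a ubiquitin-editing brake on NF-kB, lay the other way, at 7.25 and 7.07 in control, 7.31 and 7.48 in shGATA3 and 7.52 and 7.64 in shTCF1 (shTCF1 minus control 0.42 ± 0.12, adjusted p = 0.0673). BCL3, well above background on 5 arrays, differed from control by -0.35 and -0.01, both ± 0.18, and was not called.

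**Figure D3:**
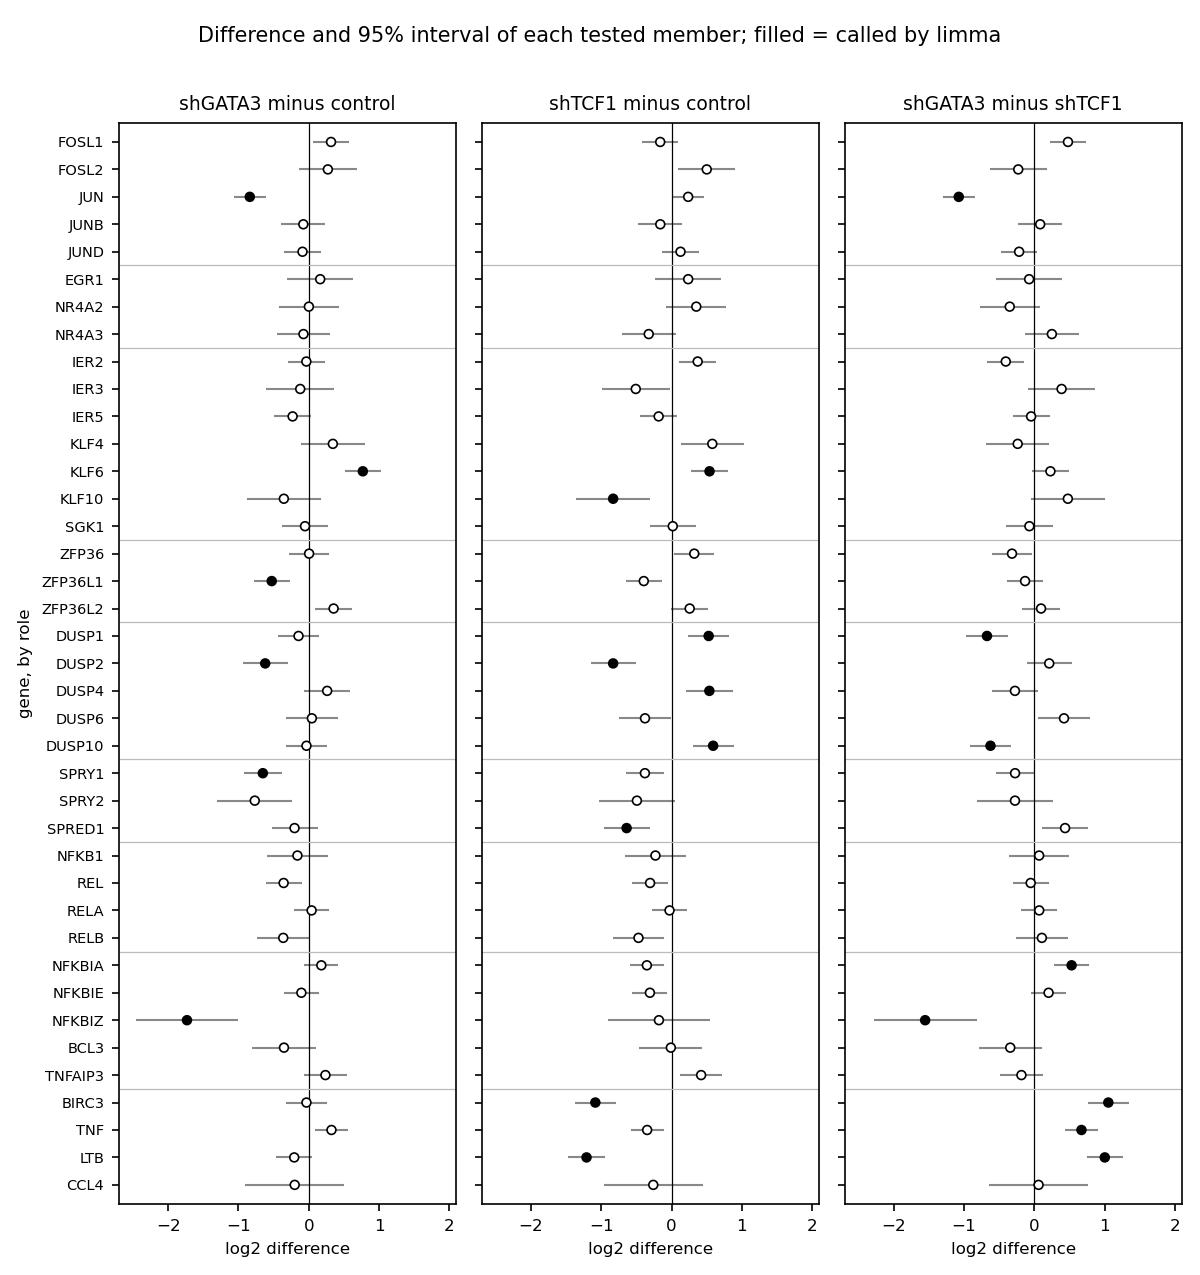
Difference of normalized log2 values (points) with its 95% interval from limma (lines) for each of the 39 tested genes in the 3 comparisons, filled where the adjusted p was below 0.05. LTB and BIRC3 lie near -1 in shTCF1 minus control and near 1 in shGATA3 minus shTCF1, and JUN lies near -1 in shGATA3 minus shTCF1.

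Upstream sequences of the 5 NF-kB group genes called between the hairpin groups are shown because LTB, BIRC3, TNF and NFKBIA were all lower in shTCF1 than in shGATA3, with NFKBIZ, whose sign the filter set, added to complete the called set. They are the 250 bases before the annotated start in RefSeq windows of GRCh38.p14, printed 5′ to 3′ on the gene's strand, with matches to the kB consensus, AP-1 and CRE motifs in capitals, of which only kB matches occurred.
LTB, chr6:31582426-31582675, minus strand: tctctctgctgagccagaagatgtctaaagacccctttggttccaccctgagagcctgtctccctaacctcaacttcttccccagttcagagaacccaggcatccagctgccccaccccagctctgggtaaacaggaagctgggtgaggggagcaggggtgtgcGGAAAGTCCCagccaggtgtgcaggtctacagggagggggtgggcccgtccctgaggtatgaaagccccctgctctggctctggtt
BIRC3, chr11:102317234-102317483, plus strand: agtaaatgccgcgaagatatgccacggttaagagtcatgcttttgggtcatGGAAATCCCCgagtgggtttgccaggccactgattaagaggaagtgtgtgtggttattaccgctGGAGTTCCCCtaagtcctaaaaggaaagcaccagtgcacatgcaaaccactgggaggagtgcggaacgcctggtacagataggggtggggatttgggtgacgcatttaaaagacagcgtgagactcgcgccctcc
NFKBIA, chr14:35404750-35404999, minus strand: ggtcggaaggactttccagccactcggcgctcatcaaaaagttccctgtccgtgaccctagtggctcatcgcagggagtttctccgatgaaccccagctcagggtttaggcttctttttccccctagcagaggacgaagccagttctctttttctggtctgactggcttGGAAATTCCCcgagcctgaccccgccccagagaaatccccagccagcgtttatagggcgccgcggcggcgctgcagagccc
NFKBIZ, chr3:101827740-101827989, plus strand: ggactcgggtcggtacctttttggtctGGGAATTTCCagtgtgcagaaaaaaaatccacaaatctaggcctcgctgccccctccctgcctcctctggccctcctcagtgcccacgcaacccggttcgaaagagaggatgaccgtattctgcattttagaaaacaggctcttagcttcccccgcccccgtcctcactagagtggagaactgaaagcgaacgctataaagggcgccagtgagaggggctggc
TNF, chr6:31575315-31575564, plus strand: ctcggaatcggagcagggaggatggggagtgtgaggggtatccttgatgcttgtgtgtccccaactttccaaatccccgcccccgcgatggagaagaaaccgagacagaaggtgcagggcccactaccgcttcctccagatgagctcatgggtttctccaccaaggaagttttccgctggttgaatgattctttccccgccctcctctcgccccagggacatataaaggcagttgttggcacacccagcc
The LTB and NFKBIA windows each held 1 match, 86 and 81 bases before the start, and that of BIRC3 held 2, at 199 and 135 bases. The NFKBIZ window shown held 1, at 223 bases, and the TNF window had none by these letters. The other tested genes with a match, TNFAIP3, REL and NFKB1, differed by -0.18, -0.05 and 0.07 in shGATA3 minus shTCF1. None of these was called, so a match did not go with a common direction.

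Windows were found for 39 of the 50 genes, and a gene was counted where any of its windows held a motif on either strand. The kB consensus occurred in 9 of the 14 NF-kB group genes with a window (NFKB1, NFKB2, REL, NFKBIA, NFKBIZ, TNFAIP3, BIRC3, LTA and LTB) and in 0 of the 25 others, beside 6.28% of 27305 genes. In REL and NFKB2 matches overlapped each other. The EGR site GCGNGGGCG occurred in 13 of the 39 (33.3%, all genes 10.1%), among them EGR1, KLF6, DUSP2, SPRY1 and TNF. The CRE TGACGTCA occurred in JUND, ZFP36L1 and DUSP1 (7.69%, all genes 2.03%), the CArG box, which serum response factor binds, in EGR1 and EGR2 (5.13%, all genes 1.44%), and the AP-1 motif TGANTCA in none (all genes 8.06%). A match is a run of letters and not a measured site, and these genes were listed in part because they are known targets.

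**Figure D4:**
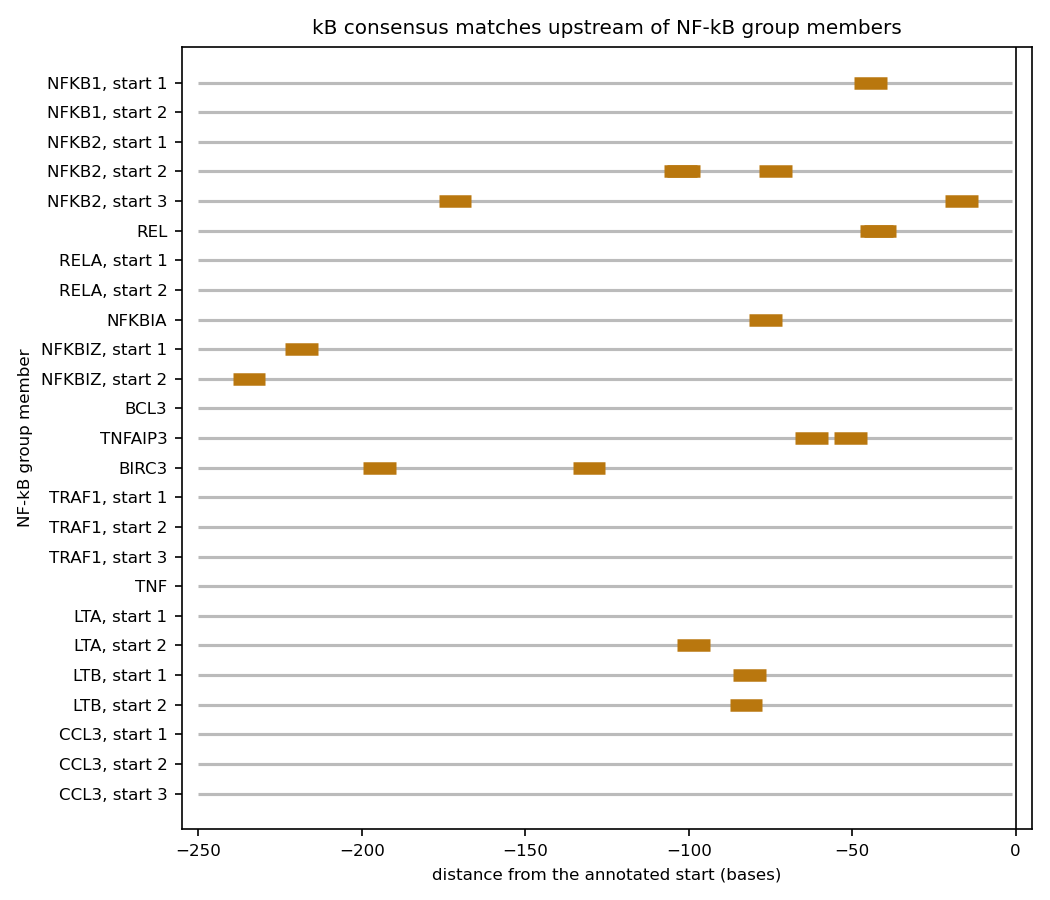
Position of each kB consensus match (bars) in the 250 bases before each annotated start (grey lines) of the 14 NF-kB group genes with a RefSeq window, 1 line per start, with distance from the start in bases on the x axis. Matches occurred in 9 of the 14 genes, with those of LTB and NFKBIA starting 87, 86 and 81 bases before a start.

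Of 109 further genes of the same pathways, 93 were tested, and 14 were called in shGATA3 against control (5 higher, 9 lower), 17 in shTCF1 against control (7 higher, 10 lower) and 7 between the hairpin groups (5 higher and 2 lower in shGATA3). Beside 6.93%, 16.3% and 6.6% of all genes, the counts for shTCF1 against control and between the hairpin groups were near the share of all genes. Of 14 AP-1 partners tested 1 was called higher and 3 lower in shGATA3, and 3 higher and 1 lower in shTCF1. JDP2, which represses AP-1, fell by 1.28 ± 0.14 in shGATA3 (adjusted p = 0.00918). None of the 7 serum response factor and ternary complex factor genes tested was called in any comparison. Of the 26 kinase cascade genes tested, 1 was called higher and 2 lower in shGATA3, and 2 higher and 3 lower in shTCF1. RASGRP1, which activates Ras downstream of the T-cell receptor, fell by 0.87 ± 0.12 in shGATA3 (adjusted p = 0.0165) and by 1.63 ± 0.12 in shTCF1 (adjusted p = 0.00384), and it was higher by 0.76 ± 0.12 in shGATA3 than in shTCF1 (adjusted p = 0.0221). Of 10 further early genes tested, 2 were called higher in shGATA3, and 1 higher and 3 lower in shTCF1. KLF2, a factor of T-cell quiescence, and TRIB1, a pseudokinase, went opposite ways in the hairpin groups. KLF2 rose by 1.41 ± 0.10 in shGATA3 (adjusted p = 0.00312) and fell by 1.27 ± 0.10 in shTCF1 (adjusted p = 0.00423), and TRIB1 rose by 1.36 ± 0.17 (adjusted p = 0.0128) and fell by 0.79 ± 0.17 (adjusted p = 0.03). The direct differences were 2.68 ± 0.10 for KLF2 (adjusted p = 0.000491) and 2.15 ± 0.17 for TRIB1 (adjusted p = 0.00261).

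Of 24 kinases and adaptors of NF-kB signalling, all tested, 1 was called higher and 2 lower in shGATA3. In shTCF1 1 was called higher and 1 lower, and none was called between the hairpin groups. All genes gave 6.93%, 16.3% and 6.6% called. TRAF3, which restrains the noncanonical pathway, was not well above background on the arrays of either hairpin group, at least 2.2-fold lower in shGATA3 (adjusted p = 0.0288) and at least 2.04-fold lower in shTCF1 (adjusted p = 0.0309). Of 12 further NF-kB targets tested, 2 were called lower in each comparison with control and none higher, GBP1 in both, CD83 in shGATA3 (-0.51 ± 0.10, adjusted p = 0.0427) and BCL2A1 in shTCF1 (-0.49 ± 0.10, adjusted p = 0.0297). GBP1, an interferon-induced gene as well, was not well above background in either hairpin group and was at least 1.7-fold and at least 1.58-fold lower (adjusted p = 0.0256 and 0.0158). As with NFKBIZ, the filter set the sign for TRAF3 and GBP1, so 1 of the 2 targets called in each comparison was decided by it, and 2 of 12 in shTCF1 is near the 16.3% of all genes.

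Each array was left out in turn. Such a fit leaves 1 array in a group and fewer degrees of freedom. A call lost in it therefore does not show that the call rested on the array left out. With any 1 array left out, LTB and BIRC3 remained called in shTCF1 against control (adjusted p at most 0.0306 and 0.0434), and JUN and LTB remained called between the hairpin groups (at most 0.0283 and 0.0399). BIRC3 between the hairpin groups was lost only without shGATA3 replicate 2 (adjusted p = 0.0528). TNF was lost without any 1 of the 4 hairpin arrays (0.0539 to 0.0766). NFKBIZ in that comparison was called only without shTCF1 replicate 2 (0.0204) and otherwise gave 0.0561 to 0.136, and DUSP1, DUSP10 and NFKBIA were called in none of the 6 fits (0.0565 to 0.119, 0.0708 to 0.141 and 0.0881 to 0.124).

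No call between shGATA3 and control was held in all 6 fits. JUN was lost without control replicate 1 (adjusted p = 0.0688), control replicate 2 (0.0554) or shGATA3 replicate 2 (0.0512). KLF6, NFKBIZ and SPRY1 were lost without any 1 of the control or shGATA3 arrays (0.0605 to 0.107, 0.0883 to 0.112 and 0.0821 to 0.136), and DUSP2 and ZFP36L1 in all 6 fits (0.0724 to 0.235 and 0.0666 to 0.214). In shTCF1 against control the call of DUSP2 needed control replicate 1 (0.0837 without it) and shTCF1 replicate 1 (0.0653), and KLF10 was lost in all 6 fits (0.052 to 0.161). KLF6, DUSP1, DUSP4, DUSP10 and SPRED1 were lost without any 1 of the control or shTCF1 arrays (0.0579 to 0.135, 0.0863 to 0.185, 0.0886 to 0.191, 0.0705 to 0.132 and 0.0886 to 0.134). With scaling to the 75th percentile 1 gene was called higher and 3 lower in shGATA3 against control and 5 higher and 3 lower in shTCF1 against control, where the main values were 1 and 5, and 4 and 5. In the log2 matrix that the authors deposited no gene of the 39 was called, and DUSP2 in both comparisons with control, SPRY1 in shGATA3 and BIRC3 in shTCF1 had the opposite sign.

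Among the further pathway genes named, KLF2 in all comparisons, TRIB1 between the hairpin groups and RASGRP1 in shTCF1 against control remained called with any 1 array left out. JDP2 was lost without control replicate 1 (adjusted p = 0.0511), and GBP1 in shTCF1 without either control array (0.0639 and 0.0699). TRIB1 in shGATA3 was lost without control replicate 1 or either shGATA3 array (0.067, 0.0575 and 0.0708), TRIB1 in shTCF1 in every such fit but that without shTCF1 replicate 2 (0.0514 to 0.121), and RASGRP1 between the hairpin groups without either shGATA3 array or shTCF1 replicate 1 (0.0794, 0.0907 and 0.0713). TRAF3 in shGATA3 was lost without any 1 of the control or shTCF1 arrays (0.0554 to 0.109), and CD83 in all 6 fits (0.0699 to 0.197). TRAF3 and BCL2A1 in shTCF1, and RASGRP1 and GBP1 in shGATA3, were lost without any 1 array of the groups compared (0.0849 to 0.122, 0.0745 to 0.157, 0.0591 to 0.0987 and 0.0708 to 0.115).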

How the data were processed

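RNA of 6 samples was hybridized to 6 one-colour Agilent arrays, 2 per group, with group and replicate read from the titles of the samples. Per the file headers, the deposited intensity of a spot is background-subtracted by Agilent Feature Extraction 10.7.1.1, without scaling between arrays. The deposited files also mark each spot with 0 or 1 for being outlying, saturated (0 spots here) or clearly above background. The authors further deposited a matrix of log2 values, VSN-normalized per their methods, with scale and centring not stated. Several of its columns followed another array better than their own, so it served only as an alternative. No sample column was left unused.

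Control spots and outlier spots were left out (71 probes), spots of a probe were averaged, and the intensities were normalized with the VSN model, written anew in R 4.3.3 (trimming quantile 0.9, 7 iterations, 5 strata). Probes had to carry the mark above background on both replicates of some group, and 31134 of 57176 did. Symbols came from matching accessions to a RefSeq table of GRCh38.p14, which named 25728 probes. limma 3.58.1 (lmFit, eBayes, two-sided) was fitted to the 6 arrays together, group being its single factor, with Benjamini-Hochberg adjustment over all tested probes. Residual degrees of freedom were 3 and those of the prior 2.97. For groups of 2 the smallest two-sided p of an exact permutation test is 0.333, so calls rest on the spread that limma shares among probes. The steps were tested on simulated data. The 50 genes and the further pathway lists were chosen with earlier results of these data known. All 50 are named, and of each further list at most the 3 called genes with the largest change per comparison, some of which are not reported here. The number of arrays limits the precision.

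Promoter windows were taken from RefSeq (GRCh38.p14), of which the 250 bases before the start were searched for letters on both strands. Alternatives were other scaling, background correction, filters, a variance trend, the mean of all probes, the replicate number as a block and leaving out each array.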

Additional observations from a re-analysis of the deposited data

How the results depend on the processing

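Under scaling to the 75th percentile or quantile normalization no count of called genes or probes moved by more than 1.5 times, and the median over all probes shifted by less than 0.1 under each setting run. Normexp on the median signal called 4280 probes in shGATA3 against control and 3281 between the hairpin groups, and 20 of the 39 genes in shTCF1 against control (9 higher, 11 lower). An intensity trend in the variance called 3912 and 3273 probes and 18 genes (7 higher, 11 lower) in the same 3 results, and called TCF7 higher in shGATA3 against control (0.33, adjusted p = 0.0405). Requiring all 6 arrays above background called 15 of 36 genes in shTCF1 against control. With no filter 560, 2272 and 901 probes and 1, 3 and 4 genes were called in shGATA3 against control, shTCF1 against control and shGATA3 against shTCF1, where more probes were tested. The deposited matrix gave 0 probes and 0 genes in each comparison by limma (1814, 2652 and 1642 probes and 5, 3 and 5 genes at an unadjusted p under 0.05). Its TCF7 differences were -0.20 in shTCF1 against control and 1.65 in shGATA3 against shTCF1, beside main values of -1.31 and 1.63. Neither was called in the matrix. The sign was opposite for DUSP2 (0.95) and SPRY1 (1.63) in shGATA3 against control and for BIRC3 (0.43) and DUSP2 (0.67) in shTCF1 against control. The further pathway genes were run through the same settings after the data were seen. Without a call, the matrix turned ATF3 (2.92, main value -0.61) and RASGRP1 (1.63) in shGATA3 against control. In shTCF1 against control it turned RASGRP1 (0.74), PIM1 (2.35, main value -0.45) and BCL2A1 (0.21), also without a call. The cause was not tested, but the matrix column of control replicate 2 correlated at 0.76 with its own array. Signs that changed without a call under either setting numbered 76 values, 21 of them from the matrix, with a median size of 0.05 under the main setting.

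Leaving out 1 array gave 437 to 1454, 865 to 4930 and 701 to 1214 called probes and 0 to 4, 2 to 9 and 2 to 4 called genes in the 3 comparisons, the lone array of a group then being assumed to vary like the others.

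With the replicate block 1328, 3853 and 1285 probes and 3, 6 and 4 genes were called. Deviations of same-numbered arrays correlated at -0.04, -0.01 and 0.05, so no strong shift common to equal numbers was seen. With 2 arrays per group this cannot exclude that same-numbered arrays came from 1 experiment. A fit with slide or scan as a block was not run, since all arrays had 1 slide and 1 scan. With 2 arrays per group and probes near background unmeasured, smaller changes and FOS, FOSB, EGR2, EGR3, NR4A1, SPRED2 and CCL3 were not detectable here.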
